A study of Mus musculus with 8 samples.

Results

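Gata4, Gata6, Sox17, Sox7, Foxa2, Hnf4a and Pdgfra were examined as the transcription factors of the primitive endoderm and the receptor commonly used to mark it. The 7 genes were taken by symbol from 2 tables of FPKM (fragment counts scaled to transcript length and sequencing depth), and all 7 were found in both, among 13056 genes listed for sorted cells and 14319 genes listed for overexpressing cells. Mouse embryonic stem cells (mESCs) from a C57BL/6(F) x 129/sv(M) cross, labelled with a developmental stage of 3.5 days, were grown on gelatin in serum with leukaemia inhibitory factor in all 4 groups, with 2 samples in each. In the first experiment, 500 KLF3-GFP-positive or KLF3-GFP-negative cells per sample were sorted from a reporter line in which the CAGGS promoter drove an N-terminal part of KLF3, without its DNA-binding domain, fused to GFP, alongside DsRed under the EF1α promoter, and Smart-seq2 libraries were made. In the second, pFT-GFP or pFT-Klf3 had been inserted at the Col1A1 FRT site of R26 mESCs with the R26-M2rtTA transactivator, and clones were picked. The paper's methods name doxycycline as the inducer of expression, and poly(A) RNA was sequenced after 72 hours of overexpression. Neither the number of clones behind the libraries nor whether the 2 samples of a group were separate cultures was given in the sources used here.

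The primitive endoderm is the epithelium that forms on the blastocoel side of the inner cell mass and gives rise to visceral and parietal endoderm of the yolk sacs. FGF4 from epiblast precursors acts through FGF receptors and ERK to favour GATA6 over NANOG, and PDGFRA, SOX17, GATA4 and SOX7 then appear in sequence as the lineage is set. FOXA2 and HNF4A act later, in the polarised endoderm and in visceral endoderm, where HNF4A controls genes of lipid and serum protein transport. Embryonic stem cell cultures contain cells that express these factors, and forced expression of GATA4, GATA6 or SOX17 is known to turn embryonic stem cells into extraembryonic endoderm-like cells.

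Each table held 1 value per gene and condition, the authors' average of the replicates, with 0.1 FPKM as the lowest value. The spread between replicates and the number of reads are therefore unknown, no value below has an error or a P value, and neighbours in an order of levels cannot be said to differ beyond their spread. Differences were taken as log2(FPKM + 1) of the KLF3-GFP-positive minus the negative column, or of the KLF3 minus the GFP column, and a gene was counted as higher or lower when this difference exceeded 1, that is 2-fold on this scale. Shares of all genes were taken over those with a mean of at least 1 FPKM in a table, called expressed genes here (9212 in sorted cells and 11179 in overexpressing cells). The median difference of expressed genes was 0.03 in sorted cells and -0.18 in overexpressing cells. Levels were not compared between the tables, whose libraries were made by different methods.

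Pou5f1, the pluripotency factor that marks mESCs, was at 115 FPKM in negative and 59.4 FPKM in positive sorted cells, and at 883 and 990 FPKM in the GFP and KLF3 columns, so each column carried this defining marker. Klf3 was at 107 and 122 FPKM in the sorted columns and at 58.7 FPKM in the GFP against 47.8 FPKM in the KLF3 column. In sorted cells these levels may include reads of the KLF3 part of the reporter and need not be those of the gene alone. On overexpression the inserted Klf3 was codon-optimized and its transcripts need not match the gene. The levels there thus do not check the label of the column labelled KLF3-overexpressing. That column also stood apart in Y-linked genes, with Eif2s3y at 30.9 FPKM in the GFP and 1.67 FPKM in the KLF3 column and Uty and Ddx3y at the lowest value in the KLF3 column, whereas Uty was at 21.4 and 20.01 FPKM in the sorted columns. The part of this difference in the results of the overexpression experiment was not tested.

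In KLF3-GFP-positive cells all 7 genes were higher than in KLF3-GFP-negative cells, and their summed level was 121 FPKM against 6.24 FPKM. In the KLF3 column their summed level was 42.8 FPKM against 8.33 FPKM in the GFP column, and 6 of the 7 genes passed the 2-fold limit there, Hnf4a being the exception. The sums were thus 19.4-fold and 5.14-fold higher. Because these were RNA pools of many cells, a larger share of cells with these transcripts and more RNA per cell cannot be told apart.

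**Figure D1:**
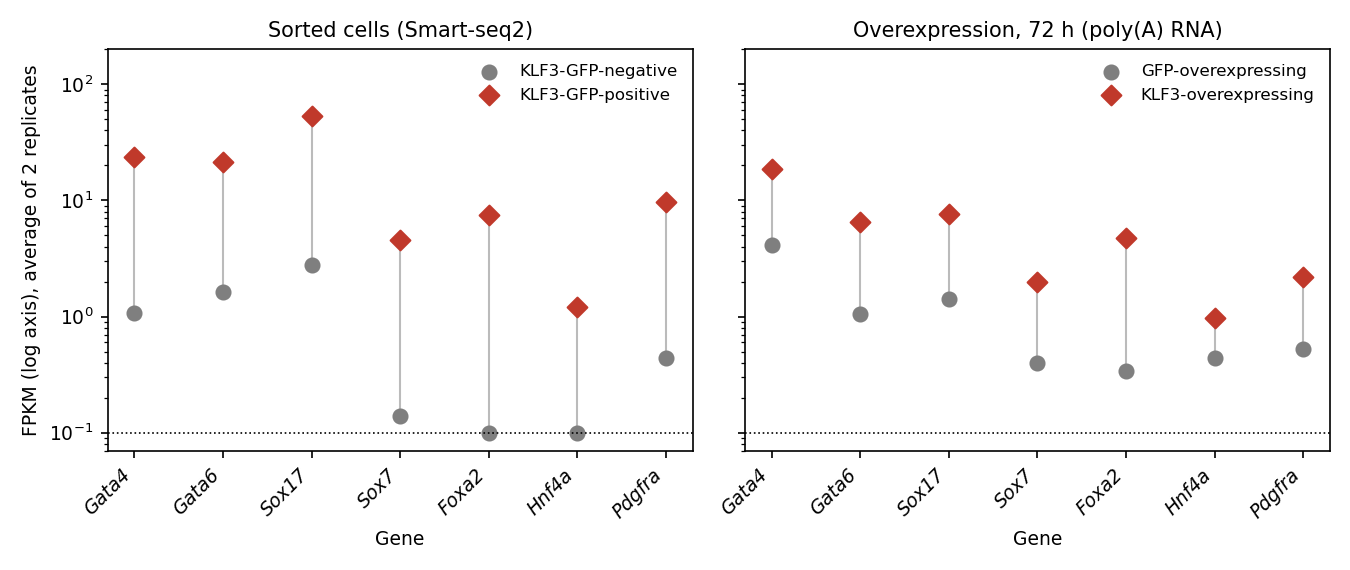
Levels of the 7 genes in the 4 columns, in FPKM on a log axis, with circles for KLF3-GFP-negative or GFP-overexpressing cells and diamonds for KLF3-GFP-positive or KLF3-overexpressing cells, each the average of 2 replicates without error. The dotted line marks the lowest value of the tables, 0.1 FPKM, where Foxa2 and Hnf4a lie in KLF3-GFP-negative cells, and every diamond lies above its circle, Sox17 reaching 53.2 FPKM.

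The GATA factors bind the same DNA motif through related zinc fingers, and GATA6 acts before GATA4 in the lineage. Gata4 (ENSMUSG00000021944, mm10 chr14:63198922-63271692, minus strand) was at 1.07 FPKM in the negative and 23.4 FPKM in the positive sorted cells, a ratio of 21.9 and a log2(FPKM + 1) difference of 3.56. Gata6 (ENSMUSG00000005836, mm10 chr18:11052510-11085635, plus strand) was at 1.63 and 21.3 FPKM in these columns, a ratio of 13.1 and a difference of 3.08. Both genes thus moved from a trace level to well within the upper part of the table, with Gata4 at rank 2656 and Gata6 at rank 2790 of the KLF3-GFP-positive column against 8741 and 7783 in the negative one. Gata4 was at 0.656 of Gata6 in negative cells and at 1.10 of it in positive cells. Without replicate values, neither order can be said to exceed the spread.

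On overexpression Gata4 was already the most abundant of the 7 genes in the GFP column, at 4.16 FPKM, and was at 18.7 FPKM in the KLF3 column, a ratio of 4.49 and a difference of 1.93. Gata6 went from 1.05 to 6.54 FPKM, a ratio of 6.23 and a difference of 1.88. Gata4 thus exceeded Gata6 in both columns of this experiment, by 3.96-fold and 2.86-fold. Of the 6 GATA genes of the mouse, 4 were listed for sorted cells and 5 for overexpressing cells. Among the expressed ones, with a pseudocount of 1 FPKM, only Gata4 and Gata6 passed the 2-fold limit, 2 of 2 and 2 of 3 genes. Of all expressed genes, 13.8% were higher in sorted cells and 6.60% on overexpression. Gata2, a factor of trophoblast and blood, was at 0.62 FPKM in the GFP and 1.98 FPKM in the KLF3 column, a difference of 0.88 that missed the limit. With a pseudocount or a floor of 0.1 FPKM, or with quantile normalization, 3 GATA genes passed it on overexpression, Gata2 included. Ldb1, a cofactor of GATA complexes, differed by -0.33 in sorted cells and by -0.31 on overexpression.

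SOX17 and SOX7 belong to the SOXF group of HMG-box factors, which also includes SOX18, a factor of endothelium. Sox17 (ENSMUSG00000025902, mm10 chr1:4490931-4497354, minus strand) had the highest level of the 7 genes in both sorted columns, at 2.76 and 53.2 FPKM, a ratio of 19.3 and a difference of 3.85, the largest of the 7 with a pseudocount of 1 FPKM but not with 0.1 FPKM, where Foxa2, Gata4 and Sox7 exceeded it. Sox7 (ENSMUSG00000063060, mm10 chr14:63943674-63950732, plus strand) was at 0.14 FPKM in the negative column, close to the lowest value of the table, and at 4.55 FPKM in the positive column, a difference of 2.28. Its ratio of 32.5 rests on that low denominator, and Sox7 passed the minimum of 1 FPKM only through the positive column. Sox18, the remaining SOXF gene, was at 0.97 FPKM in negative cells and at the lowest value in positive cells.

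In the KLF3 column Sox17 was at 7.70 FPKM against 1.41 FPKM in the GFP column, a ratio of 5.46 and a difference of 1.85. Sox7 was at 1.97 against 0.40 FPKM, a ratio of 4.92 and a difference of 1.09, just past the limit. Sox18 was at 0.78 FPKM in the GFP and 0.37 FPKM in the KLF3 column. Sox17 was therefore above Sox7 in every column, by 19.7-fold and 11.7-fold in the sorted columns and by 3.52-fold and 3.91-fold in the overexpression columns.

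Among 6 expressed SOX genes of sorted cells, Sox17 and Sox7 were higher and Sox2 and Sox15 were lower past the limit, where 13.8% and 8.32% of all expressed genes were. Sox2, a core factor of the epiblast, was at 39.4 and 9.64 FPKM in the negative and positive columns, a difference of -1.92. Sox15, which overlaps Sox2 in its expression in mESCs, was at 34.4 and 9.48 FPKM, a difference of -1.76. Sox2 was thus 14.3-fold above Sox17 in negative cells and at 0.181 of its level in positive cells. Sox12 and Sox4 were below the limit with differences of -0.64 and -0.73, and Sox11, whose mean was under 1 FPKM, had -0.51. Among 9 expressed SOX genes of the overexpression experiment, Sox17 and Sox7 were higher and 0 were lower, where 6.60% and 10.1% of all expressed genes were. The other 7, namely Sox2, Sox15, Sox12, Sox13, Sox4, Sox11 and Sox1, had differences from -0.79 (Sox12) to 0.29 (Sox11), and Sox2 stayed 13.5-fold above Sox17 in the KLF3 column, after 112-fold in the GFP column.

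FOXA2 is a forkhead factor that opens chromatin at endoderm genes, and HNF4A is a nuclear receptor. Foxa2 (ENSMUSG00000037025, mm10 chr2:148042877-148046969, minus strand) was at the lowest value of the table, 0.1 FPKM, in KLF3-GFP-negative cells and at 7.45 FPKM in KLF3-GFP-positive cells, at least 74.5-fold higher, with a difference of 2.94. Hnf4a (ENSMUSG00000017950, mm10 chr2:163506808-163572910, plus strand) was also at 0.1 FPKM in negative cells and was at 1.21 FPKM in positive cells, at least 12.1-fold higher. Its difference of 1.01 lay just past the limit, and its mean of 0.655 FPKM kept it out of the expressed genes. This difference dropped under the limit, to values from 0.91 to 0.99, under 3 other ways of processing. Foxa2 and Hnf4a were the only genes of the 7 at the lowest value in any column.

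On overexpression Foxa2 had the largest difference of the 7 genes, 2.11, with 0.34 FPKM in the GFP and 4.77 FPKM in the KLF3 column and a ratio of 14.0. With the trend with genomic span removed it was 1.61, below Gata4 at 2.24. Hnf4a had the smallest, 0.45, with 0.44 and 0.97 FPKM, and did not pass the limit. Of the other FOXA genes, Foxa3 differed by 0.38 in sorted cells, where its mean was under 1 FPKM, and by 0.23 on overexpression. Foxa1 was at 0.11 and 0.10 FPKM in the GFP and KLF3 columns.

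PDGFRA is the receptor tyrosine kinase for PDGF-A, needed for survival and expansion of primitive endoderm, and it also marks mesoderm and fibroblasts. Pdgfra (ENSMUSG00000029231, mm10 chr5:75152292-75198215, plus strand) was at 0.44 FPKM in negative and 9.67 FPKM in positive sorted cells, a ratio of 22.0 and a difference of 2.89. In the overexpression experiment it was at 0.53 and 2.21 FPKM, a ratio of 4.17 and a difference of 1.07, the closest to the limit of the genes that passed. Pdgfra and Sox7 were thus the weakest of the 6 genes past the limit on overexpression with a pseudocount of 1 FPKM, and Pdgfra, like Foxa2 and Sox7, passed the minimum of 1 FPKM in both tables only through the column of KLF3-GFP-positive or KLF3-overexpressing cells.

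The gene of its ligand stayed within the limits in both experiments. Pdgfa was at 18.4 and 21.7 FPKM in the sorted columns (difference 0.23) and at 23.1 and 17.9 FPKM in the GFP and KLF3 columns (-0.36). The transcript of the ligand exceeded that of the receptor 41.8-fold in negative and 2.25-fold in positive sorted cells, and 43.7-fold and 8.08-fold in the GFP and KLF3 columns. Pdgfc differed by -0.17 and Pdgfb by 0.14 on overexpression. Of the related receptors, Kit, the stem cell factor receptor, differed by -0.22 in sorted cells but was lower on overexpression, at 16.1 FPKM in the GFP and 4.47 FPKM in the KLF3 column (-1.65). Flt1, a VEGF receptor, was at the lowest value in the negative and at 1.42 FPKM in the positive sorted column, with a mean under 1 FPKM.

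Downstream components of PDGF receptor signalling were counted in the same way. In sorted cells 1 of 13 expressed components was higher, Pik3r1, a regulatory subunit of PI3-kinase, at 2.92 and 10.9 FPKM (difference 1.60), and 0 were lower. Shc1 and Crk, both adaptors, had 0.77 and 0.76. In the overexpression experiment 0 of 14 were higher and 3 were lower, namely the adaptors Crkl (9.51 and 1.08 FPKM, -2.34) and Nck1 (19.9 and 7.26 FPKM, -1.34) and the RAS GTPase-activating protein Rasa1 (18.2 and 6.76 FPKM, -1.31). These counts stand beside 13.8% of all expressed genes higher and 8.32% lower in sorted cells, and 6.60% and 10.1% on overexpression. The medians of these components were 0.48 and -0.59, against 0.03 and -0.18 for all expressed genes.

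The members' counts were read against all expressed genes of each table. In sorted cells 6 of the 7 genes were expressed and all 6 were higher, where 13.8% of the 9212 expressed genes were higher and 8.32% were lower. With no minimum expression, 7 of 7 were higher, against 10.1% of the 13056 listed genes. In overexpressing cells 6 of 6 expressed members were higher, where 6.60% of the 11179 expressed genes were higher and 10.1% were lower, and with no minimum 6 of 7 were higher against 5.23% of listed genes. In each table, Foxa2, Sox7 and Pdgfra were expressed only through the higher column, so these counts are partly fixed by the minimum. Gata4, Gata6 and Sox17 were at or above 1 FPKM in every column and were higher in both experiments. Of the 8887 genes expressed in both tables, 227 (2.55%) were higher in both, the 6 expressed members among them.

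The order of the differences depended on the pseudocount. With 1 FPKM, in sorted cells Sox17 (rank 61 among expressed genes), Gata4 (74) and Gata6 (116) led, followed by Foxa2 (131), Pdgfra (136) and Sox7 (256). With a pseudocount of 0.1 FPKM, Foxa2 led there (5.24) and Gata6 came last of these 6 genes (3.63), with the other 4 between 4.18 (Pdgfra) and 4.33 (Gata4). On overexpression, with 1 FPKM, Foxa2 (56), Gata4 (77), Gata6 (82) and Sox17 (89) lay close together, and Sox7 (591) and Pdgfra (623) stood well behind. Shares of the summed level are given within each table only. Sox17 made up 44.2% and 44.0% of it in the negative and positive sorted columns, and Gata4 17.1% and 19.4%. In the GFP and KLF3 columns Gata4 made up 49.9% and 43.6%, and Sox17 16.9% and 18.0%. Foxa2 gained share in both experiments, from 1.60% to 6.17% and from 4.08% to 11.1%. Over all 7 genes the median difference was 2.94 and 1.85, against 0.0 and -0.11 over all listed genes.

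**Figure D2:**
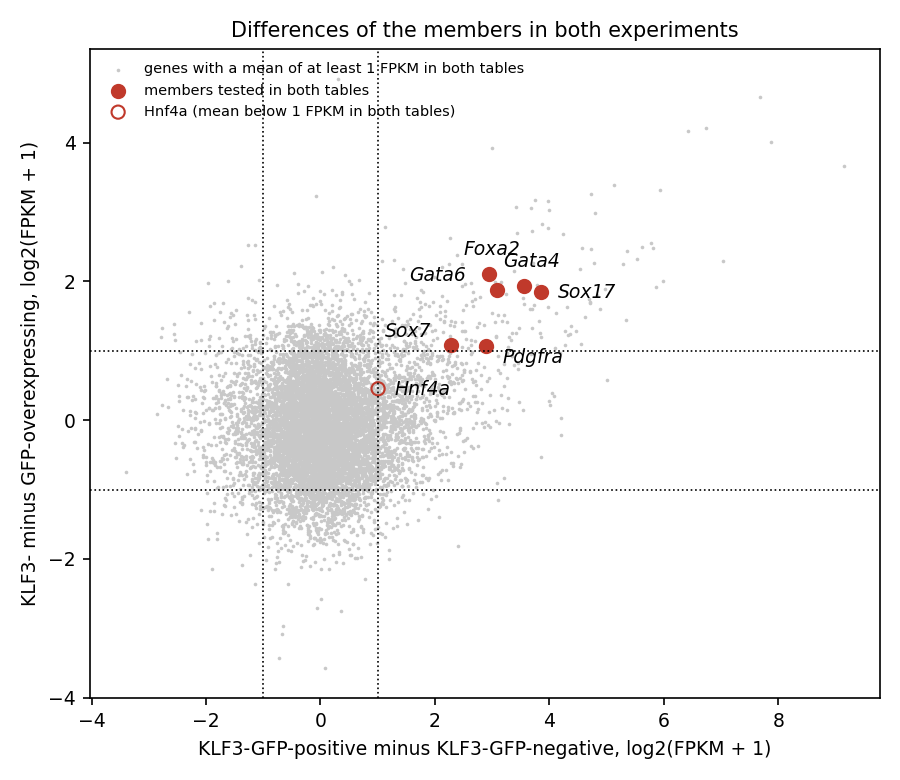
Difference of log2(FPKM + 1) in sorted cells on the x axis (KLF3-GFP-positive minus negative) and in overexpressing cells on the y axis (KLF3 minus GFP), with grey points for the 8887 genes expressed in both tables, filled red points for the 6 expressed members and an open red circle for Hnf4a. Dotted lines mark the 2-fold limits, and all 6 filled points lie past both, with Sox7 and Pdgfra near the upper limit on the y axis at 1.09 and 1.07.

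Genomic span moved with the differences of the overexpression experiment. When the expressed genes were cut into 5 groups of equal size by span, the group with the shortest span held Sox17, Sox7 and Foxa2, had a median difference of 0.35 and had 16.4% of its genes higher. In the next to longest group, with Gata6 and Pdgfra, these were -0.44 and 3.04%, and in the longest, with Gata4, -0.49 and 2.42%. In sorted cells the medians of such groups lay between -0.03 and 0.12. After removal of this trend, 5 of 6 expressed members were still higher on overexpression, Sox7 falling to 0.75, while Gata4, in the longest group, stood at 2.24. The part of span in these results beyond this removal was not tested.

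GENCODE genes on the opposite strand overlap 4 of the 7 loci, namely 1010001N08Rik at Gata6, Gm37587 at Sox17, Hnf4aos at Hnf4a, and Gm42802 and Gm42803 at Pdgfra. Smart-seq2 does not mark the strand, so in sorted cells reads from stretches shared with an antisense gene may come from either. The overlap given is that of loci, not of exons. The overexpression libraries came from a directional kit, which keeps the strand, but the strand setting used in counting was not given in the sources used here. Gata4, Sox7 and Foxa2 have no overlapping gene. Gata4 and Sox7 lie on the same chromosome 671981 bases apart, and none of the genes listed between them passed the limit (4 in sorted and 5 in overexpressing cells, among them Tdh, at 102 and 149 FPKM in the sorted columns, and Pinx1).

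Core promoters were looked up because the members moved together. RefSeq windows on GRCm38.p6, the assembly of mm10, from 250 bases before to 50 after a transcript start were at hand for Foxa2 (3 starts), Hnf4a (2) and Pdgfra (1). The windows that hold the 5′ end of the deposited locus are shown, together with an inner start of Foxa2 that holds both GATA and SOX letters. Capitals mark, on either strand, CACCC (the box bound by KLF proteins), the overlapping GATA letters GATAA and AGATA, and the SOX letters ACAAT and ACAAAG.
Pdgfra, chr5:75152001-75152300, plus strand: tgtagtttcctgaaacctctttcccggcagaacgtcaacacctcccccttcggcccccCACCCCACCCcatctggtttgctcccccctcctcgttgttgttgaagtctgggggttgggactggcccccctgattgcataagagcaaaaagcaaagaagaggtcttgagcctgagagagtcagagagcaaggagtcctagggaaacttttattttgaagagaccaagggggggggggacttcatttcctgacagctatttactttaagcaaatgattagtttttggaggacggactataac
Foxa2, outer start, chr2:148046920-148047219, minus strand: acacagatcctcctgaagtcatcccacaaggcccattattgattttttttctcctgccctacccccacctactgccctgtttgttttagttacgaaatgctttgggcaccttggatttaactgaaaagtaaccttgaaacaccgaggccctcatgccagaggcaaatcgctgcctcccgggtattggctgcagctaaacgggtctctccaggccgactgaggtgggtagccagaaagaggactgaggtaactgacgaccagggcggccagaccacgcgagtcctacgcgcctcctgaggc
Foxa2, inner start, chr2:148045415-148045714, minus strand: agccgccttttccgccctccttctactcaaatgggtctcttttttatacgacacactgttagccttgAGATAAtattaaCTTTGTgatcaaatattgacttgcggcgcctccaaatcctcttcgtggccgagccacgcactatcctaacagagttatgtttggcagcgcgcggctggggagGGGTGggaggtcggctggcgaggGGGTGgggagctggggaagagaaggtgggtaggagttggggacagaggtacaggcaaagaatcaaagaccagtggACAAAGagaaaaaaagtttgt
Hnf4a, chr2:163506607-163506906, plus strand: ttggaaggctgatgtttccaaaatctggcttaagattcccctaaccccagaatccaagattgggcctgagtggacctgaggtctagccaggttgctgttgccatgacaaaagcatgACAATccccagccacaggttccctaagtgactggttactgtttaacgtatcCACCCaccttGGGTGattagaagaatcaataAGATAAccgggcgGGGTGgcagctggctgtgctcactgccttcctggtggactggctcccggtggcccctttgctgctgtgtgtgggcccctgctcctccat

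The Pdgfra window held 2 CACCC boxes in direct succession and no GATA or SOX letters. The outer Foxa2 window held none of the motifs, whereas the inner one held AGATAA, in which both GATA motifs overlap, 2 CACCC boxes and 2 ACAAAG. The Hnf4a window held AGATAA, 3 CACCC boxes and 1 ACAAT. The CACCC box was found in 5 of the 6 windows and in 57.5% of all 32841 RefSeq windows of this length, GATAA in 25.4%, AGATA in 29.6%, either of these in 39.6%, ACAAT in 31.0% and ACAAAG in 18.7%. These matches are letters in a short window and were not measured as binding.

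Genes with a similar pair of differences were found by distance in the plot of both experiments, over the 8887 genes expressed in both. Nearest to Gata4 were Podxl, a sialomucin of epithelia (distance 0.176; differences 3.54 and 1.76), Clic3, a chloride channel protein (0.225), and B2m, the light chain of MHC class I (0.261). Nearest to Sox17 were Cxcl10, a chemokine (0.103; 3.95 and 1.88), Clic3 (0.111) and Dram1, a lysosomal protein of autophagy (0.229). Hopx, a homeodomain-only cofactor (3.06 and 1.99), and Dok2, an adaptor of receptor tyrosine kinases (3.16 and 2.0), were the 2 nearest genes of both Gata6 (0.110 and 0.142) and Foxa2 (0.167 and 0.246), followed by Nppb for Gata6 (0.165) and by Gata6 itself for Foxa2 (0.269). Nearest to Sox7 were Meis3 (0.102), Commd3 (0.125) and the homeobox gene Msx2 (0.135), and nearest to Pdgfra were Pdzk1ip1 (0.0991), Smarca2, an ATPase of chromatin remodelling (0.106), and Glul, glutamine synthetase (0.206). Each gene has only 4 values behind its place in this plot.

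Genes that act downstream in the extraembryonic endoderm were mostly higher along with the 7 genes. The lists of this and the following paragraphs were chosen with earlier results of these data known, so their counts are no independent support. Of all expressed genes, 13.8% were higher and 8.32% lower in sorted cells, and 6.60% and 10.1% on overexpression. Of the basement membrane and early primitive endoderm genes, 13 of 14 expressed genes were higher and 0 were lower in sorted cells (median 4.76), and 12 of 13 were higher and 1, Nid1, was lower on overexpression (median 1.92). Of the 14, 5 were expressed only through the KLF3-GFP-positive column, Dab2 among them. Dab2, an endocytic adaptor required for endoderm organisation, went from 0.78 to 233 FPKM (difference 7.04) in sorted cells, and Rhox5, a homeobox gene of extraembryonic endoderm, from 23.2 to 1410 FPKM (5.87). On overexpression Col4a1, a basement membrane collagen, went from 12.7 to 75.5 FPKM (2.48) and Lama1, a laminin chain, from 6.38 to 39.7 FPKM (2.46). Srgn, the proteoglycan serglycin, had the largest difference of this list in both, 9.14 and 3.66.

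Visceral endoderm genes were higher for 11 of 14 expressed genes in sorted cells, with Apoa1 and Apoa2 lower (median 3.42), and for 14 of 16 on overexpression with 0 lower (median 1.67). Of these, 5 in sorted and 8 in overexpressing cells were under 1 FPKM in the negative or GFP column. These and the parietal counts below stand beside 13.8% of all expressed genes higher and 8.32% lower in sorted cells, and 6.60% and 10.1% on overexpression. Of the 20 genes of the visceral list, 3 were not listed for sorted and 1 for overexpressing cells, Afp being absent from both. Ttr was at 0.10 and 1.79 FPKM in the sorted columns, with a mean under 1 FPKM, and differed by 1.99 on overexpression. Amn, the anchor of the cubilin receptor, was at 2.39 and 185 FPKM in the sorted columns (5.78) and at 1.18 and 11.7 FPKM in the GFP and KLF3 columns (2.55). Cited1, a transcriptional coactivator, differed by 5.94 and 3.31, and Spink1, a trypsin inhibitor, by 6.73 and 4.2. The parietal list had 11 genes, of which 2, Thbd among them, were not listed for either experiment. Of parietal endoderm genes, 8 of 9 were higher and 1, Vim, was lower in sorted cells (median 3.43), and 6 of 8 were higher with 0 lower on overexpression (median 2.03). Of these, 3 in sorted cells (Pth1r, Plat and Snai1) and 1 on overexpression (Snai1) were expressed only through the higher column. Pth1r, the receptor for parathyroid hormone-related protein, differed by 4.23 and 2.68. Lamb1 and Sparc belong to both the basement membrane and the parietal list, with Lamb1 at 4.78 in sorted cells and 2.26 on overexpression.

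Definitive endoderm and mesendoderm also use Sox17, Foxa2, Gata4 and Gata6. Only 4 of the 14 genes of that list were expressed in sorted cells and 3 on overexpression, and 0 of them passed the limit, too few to set against the shares over all expressed genes (13.8% higher and 8.32% lower in sorted cells, 6.60% and 10.1% on overexpression). Eomes, a T-box factor, was at 0.83 and 1.48 FPKM in the sorted columns and at 3.04 and 3.43 FPKM in the GFP and KLF3 columns. Otx2 differed by -0.59 and 0.59, Mixl1 by -0.09 in sorted cells and Hhex by 0.41 on overexpression. T, the defining gene of primitive streak, was at 0.61 and 0.16 FPKM in the GFP and KLF3 columns.

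Fibroblasts express Pdgfra, and the clones of the overexpression experiment had been selected on feeder cells. In sorted cells 0 of 16 fibroblast markers were expressed, 6 were listed, and their summed level was 1.72 and 2.37 FPKM, with Col1a2 at 0.10 and 0.25 FPKM. Twist1, a mesenchymal bHLH factor of this list, was at 0.13 and 1.56 FPKM, a difference of 1.18 that passed the limit although its mean was under 1 FPKM, and without it the sum was not higher in the positive column. On overexpression 10 were listed and 5 expressed, with a summed level of 15.4 and 24.3 FPKM. Acta2, at 7.02 and 14.9 FPKM, accounted for most of that difference. Its ratio was 2.13, but with a pseudocount of 1 FPKM its difference of 0.99 just missed the limit. Loxl1 and Fbln2 differed by 0.33 and -0.27, and none of the expressed markers passed the limit with that pseudocount. Col1a1 was at 0.23 and 0.29 FPKM and Col1a2 at 0.18 and 0.40 FPKM. The part of fibroblasts in the level of Pdgfra was not tested.

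Of the mesoderm and cardiac list, in which GATA4 and GATA6 also act, 1 gene was expressed in sorted cells, Tcf15, and it was lower, at 195 and 74.0 FPKM (-1.38). On overexpression 2 of 3 were higher, Tcf15, at 28.2 and 135 FPKM (2.22), and Hand1, at 0.83 and 4.16 FPKM (1.5), while Mesp2 differed by 0.35. Nkx2-5, a cardiac factor, was at most at 0.44 FPKM in the 4 columns. Of 6 expressed trophoblast markers in sorted cells, Krt8, Krt18 and Tead4 were higher and Ascl2 was lower, and of 10 on overexpression Krt8, Krt18 and Hand1 were higher. These and the mesoderm counts stand beside 13.8% of all expressed genes higher and 8.32% lower in sorted cells, and 6.60% and 10.1% on overexpression. Krt8 and Krt18, keratins of simple epithelia, stand in the parietal list too and differed by 3.43 and 3.75 in sorted cells and by 2.70 and 3.18 on overexpression. Cdx2, the defining factor of trophoblast, was at 0.10 and 0.57 FPKM in the sorted columns and at 0.10 and 0.60 FPKM in the GFP and KLF3 columns.

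**Figure D3:**
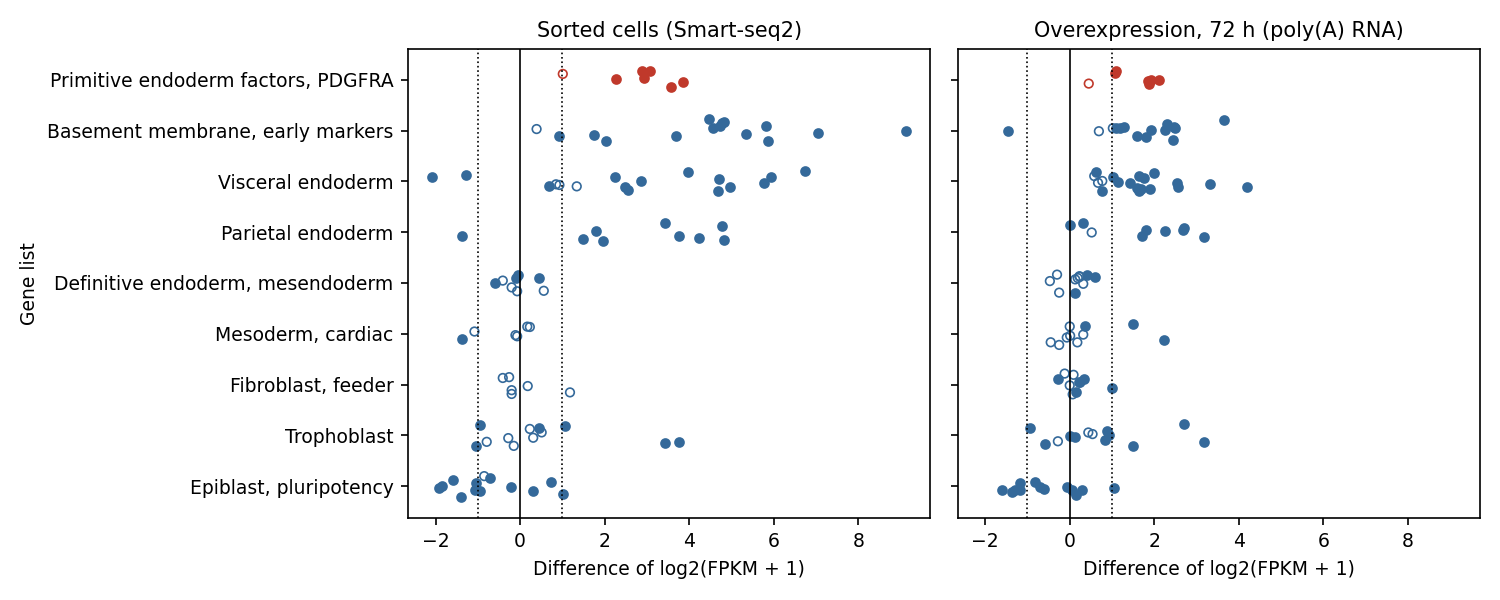
Difference of log2(FPKM + 1) (x axis) for the genes of 9 lists (y axis), in sorted cells on the left and overexpressing cells on the right, with filled points for expressed genes and open points for genes with a mean under 1 FPKM. The 7 members are in red, dotted lines mark the 2-fold limits, and the basement membrane, visceral and parietal endoderm genes lie mostly to the right of the upper limit, as the members do. Definitive endoderm genes lie between the limits, but only 4 in sorted and 3 in overexpressing cells were expressed, too few for a contrast.

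Epiblast and pluripotency factors were lower for 6 of 12 expressed genes and higher for 1, Tbx3, in sorted cells (median -0.99). With median-ratio scaling or quantile normalization, 0 of these factors were higher there. On overexpression they were lower for 5 of 13 and higher for 1, Sall4 (median -0.70). Of all expressed genes, 8.32% were lower and 13.8% higher in sorted cells, and 10.1% and 6.60% on overexpression. Nanog, the antagonist of Gata6 in the inner cell mass, was at 20.8 and 5.03 FPKM in the sorted columns (-1.85) and at 255 and 103 FPKM in the GFP and KLF3 columns (-1.30). Nanog was thus 12.8-fold above Gata6 in KLF3-GFP-negative cells, whereas Gata6 was 4.24-fold above Nanog in KLF3-GFP-positive cells. On overexpression Nanog stayed above Gata6, by 242-fold in the GFP and 15.7-fold in the KLF3 column. Nr0b1, a naive pluripotency gene, differed by -1.58 in sorted cells, and Prdm14 and Klf5 by -1.61 and -1.37 on overexpression.

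Of the FGF and ERK genes that act in specification of the lineage, 2 of 14 expressed genes were higher and 4 were lower in sorted cells, where 13.8% and 8.32% of all expressed genes were. The 4 lower genes were Fgf4, the epiblast ligand, at 13.6 and 2.84 FPKM (-1.92), Fgfr1, at 7.04 and 1.87 FPKM (-1.49), Dusp6 (-1.42) and Etv5 (-1.38). The 2 higher genes were Fgfr2, a receptor of primitive endoderm, at 0.61 and 3.66 FPKM (1.53), and the ERK phosphatase gene Dusp4, at 1.44 and 10.5 FPKM (2.23). On overexpression 1 of 17 was higher, Map2k2 (1.11), and 0 were lower, beside 6.60% and 10.1% of all expressed genes, with Fgf4 at -0.73 and Etv4 at 0.77. The medians of this list were -0.20 and -0.18.

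**Figure D4:**
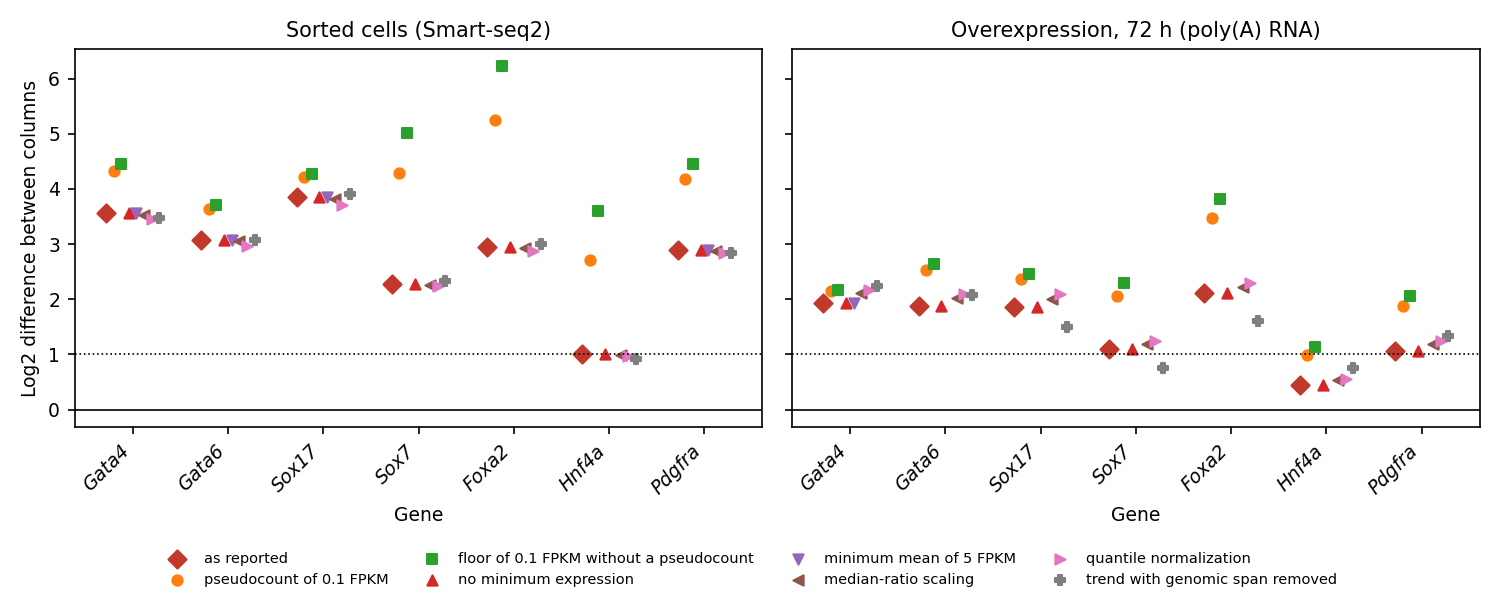
Log2 difference between the columns of each experiment (y axis) for the 7 genes (x axis), as reported (red diamonds) and under 7 other ways of processing. The dotted line marks the 2-fold limit, every point lies above 0, and the spread is widest for genes near the lowest value in the first column, with Foxa2 in sorted cells from 2.87 to 6.22.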

How the data were processed

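RNA-seq was done on 2 samples in each of 4 groups. Reads were aligned to mm10 with STAR and FPKM was computed by the authors with Cufflinks (STAR 2.6.0 and Cufflinks 2.2.1 in the submitters' processing notes; the paper's methods name another STAR version). For each experiment the authors deposited FPKM in a table of 2 columns, each the average of the replicates, rounded to 2 decimals with 0.1 as the lowest value. Whole reads could not be recovered from such averages, so depth, SD and P values are not given, and the tests planned for replicate values (limma, a replicate block, leaving out replicates) could not be run. Where an identifier had several loci, the most abundant one was kept.

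Differences were computed with Python 3.11.15, pandas 2.3.3 and numpy 2.4.6 as log2(FPKM + 1), a mean of 1 FPKM was the minimum, and a difference over 1 was counted. The alternatives were a smaller pseudocount (0.1), no pseudocount with values floored at 0.1, no minimum or a minimum mean of 5 FPKM, median-ratio scaling, quantile normalization and removal of a lowess trend (fraction 0.3, statsmodels 0.14.6) with genomic span. The scripts were tested on simulated data. Changes were simulated only in genes above the mean level of most members, so recovery at low levels was not tested. Members and gene lists were chosen with earlier results of these data known. The genes named are the 7 members, genes of the GATA, SOX, FOXA/HNF and PDGF lists at 1 FPKM or more in a column, the 3 genes with the largest absolute difference in each other list and the 3 nearest genes of each member; the rest were chosen after their values were seen. Some genes that this rule selects are not reported here. Overlapping genes and strands came from GENCODE M21, and promoter windows from RefSeq, which gave 6 windows for 3 of the 7 members.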

Additional observations from a re-analysis of the deposited data

How the results depend on the processing

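No paired analysis was possible because each condition has 1 averaged column. Leaving out replicates was not run for the same reason.

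In sorted cells the count of members higher and the share of all expressed genes higher stayed within 1.5-fold of the values reported under all 7 alternatives. On overexpression the count of members was 1 with a mean of at least 5 FPKM, since only Gata4 is then expressed, and otherwise 5 or 6. The share of expressed genes higher there was 10.4% with median-ratio scaling, which moves the median difference from -0.18 to 0, and 4.29% after removal of the trend with genomic span. All member differences were above 0 under every alternative. Hnf4a in sorted cells dropped under the limit with median-ratio scaling (0.99), quantile normalization (0.97) and the span trend removed (0.91), and passed it on overexpression with a floor of 0.1 FPKM (1.14). Sox7 on overexpression was 0.75 with the span trend removed, and up to 2.30 otherwise. Of 224 counts of genes higher or lower in the lists under the alternatives, 207 in sorted and 201 in overexpressing cells stayed within 1.5-fold.

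The unknown spread between replicates limits every comparison, and low levels limit Hnf4a, Sox7 and Foxa2 most. In sorted cells their ratios rest on values at or near 0.1 FPKM, and in the GFP column they were at 0.44, 0.40 and 0.34 FPKM. Pdgfra was low as well, at 0.44 FPKM in the negative and 0.53 FPKM in the GFP column. The pseudocount thus sets much of the difference of these genes.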

Other observations

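Some genes of the lists around the primitive endoderm factors had differences of opposite sign in the 2 experiments, and these were picked after their values were seen. Apoa2, a lipoprotein of visceral endoderm and liver, was at 76.8 and 17.3 FPKM in the negative and positive sorted columns (difference -2.09) but at 29.7 and 67.4 FPKM in the GFP and KLF3 columns (1.15). Apoa1, its partner in high-density lipoprotein, had -1.27 and 2.53. Tcf15, a bHLH factor of paraxial mesoderm and primed pluripotent cells, had -1.38 and 2.22. Klf5 went the other way, with 0.72 in sorted cells and -1.37 on overexpression. Nid1, a linker of laminin and collagen IV, had 0.93 and -1.47 while Lamc1, the laminin chain it binds, had 3.70 and 1.60. Whether these differences between the experiments exceed the spread of replicates was not tested.

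Fgfr3 was at the lowest value and at 1.75 FPKM in the sorted columns but at 1.39 and 0.64 FPKM in the GFP and KLF3 columns. Pik3r1 was higher in sorted cells (1.60) and was at 0.76 and 0.74 FPKM on overexpression.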
